A study of Mus musculus with 8 samples.

Results

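The genes described here encode the paired immunoglobulin-like receptors of mouse macrophages: Pira12, Pira2, Lilra6, Lilra5, Pirb, Lilrb4a and Lilr4b. They were taken by symbol from the deposited table of 15853 genes, in which 6 of the 7 have a row of the same name. No row is called Lilr4b, and the row Lilrb4b was read as that gene, an identity that rests on nomenclature alone. The table holds 11 rows whose symbols start with Pira, Pirb or Lilr, called the family rows below. The other 4 are Pira1, Pira13 and the pseudogene rows Pira2-ps1 and Pira2-ps2. Related genes under other symbols were not counted among them. The family was chosen by fold changes of this same comparison, in which Pira12 was already known to be lower, so the fold changes of its genes are given as a description and support nothing further.

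The cells were mouse bone marrow macrophages, differentiated over 7 days with L929-conditioned medium, a source of the growth factor M-CSF. A mixture of insulin (10 nM), glucose (25 mM) and the saturated fatty acid C16:0 (250 uM) was then applied to all of them for 24 h. Both genotypes carried floxed alleles of the miRNA clusters Mirc11 and Mirc22 (Mirc11fl/fl Mirc22fl/fl); the control cells were Lyz2+/+ and the knockout cells Lyz2Cre/Cre, with 4 poly(A) RNA-seq libraries of each. Cre is driven from the Lyz2 locus, which is active in myeloid cells, and its insertion disrupts Lyz2, so loss of the clusters, Cre and loss of Lyz2 cannot be told apart. Age and sex of the mice, and whether libraries of a genotype came from separate animals, are not stated in the labels, and p-values measure only the spread between these libraries.

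Receptors of this family sit on the surface of myeloid cells and B cells and come in activating and inhibitory forms with near-identical outer parts. PIR-B, the product of Pirb, carries tyrosine motifs (ITIMs) in its tail that recruit the phosphatases encoded by Ptpn6 and Ptpn11. The PIR-A proteins have short tails and signal through the Fc receptor gamma chain, encoded by Fcer1g, which bears an activating motif (ITAM). Both bind MHC class I molecules. On another chromosome, Lilrb4a encodes the inhibitory receptor gp49B, which has ITIMs, and Lilr4b the related gp49A, which lacks them.

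In GENCODE M21 (GRCm38, the assembly of mm10), Pirb lies at chromosome 7, 3711409 to 3720391, Pira2 at 3836812 to 3845051 and Lilra6 at 3908280 to 3915503, all on the minus strand. Lilra5 lies farther along the same chromosome, at 4237754 to 4243463 on the plus strand. Lilr4b (51480632 to 51486703) and Lilrb4a (51490956 to 51496611) are neighbours on the plus strand of chromosome 10. Pira1 is placed by RefSeq at the position of the GENCODE gene Gm15922, and that gene's transcript stands for it below. Of the 7 genes, 6 were found in GENCODE by symbol; Pira12 is named only.

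A stretch of coding sequence shows how alike the copies are, and therefore how far reads can be assigned to one of them. The lines give the first 60 bases of the third coding exon, 285 bases long in each of these genes, with capitals for bases that differ from Pirb.
Pirb: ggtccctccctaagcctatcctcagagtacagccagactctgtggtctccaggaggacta
Pira1: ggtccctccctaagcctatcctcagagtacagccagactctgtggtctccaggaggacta
Pira2: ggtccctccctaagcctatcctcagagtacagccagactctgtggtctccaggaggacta
Lilra6: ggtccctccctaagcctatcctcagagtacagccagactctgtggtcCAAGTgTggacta
Lilra5: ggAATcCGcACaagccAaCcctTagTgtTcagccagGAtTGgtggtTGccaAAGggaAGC
Lilrb4a: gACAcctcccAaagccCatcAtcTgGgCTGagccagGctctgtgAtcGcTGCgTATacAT
Lilr4b: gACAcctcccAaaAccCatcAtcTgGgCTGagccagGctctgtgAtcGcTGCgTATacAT
The Pirb, Pira1 and Pira2 stretches were identical, and Lilra6 differed from them at 6 of the 60 bases. Lilra5 differed at 24, Lilrb4a at 22 and Lilr4b at 23. In Pirb the stretch covers chromosome 7, 3719862 to 3719921, and in Lilrb4a chromosome 10, 51491434 to 51491493.

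Whole coding sequences grouped in the same way. Pira1 and Pira2 were 99.2% identical over 2043 aligned bases, with 17 differences. Pirb matched Pira2 at 94.6% of 2033 aligned bases and Lilra6 at 93.9% of 1990. Its transcript has 15 exons, against 10 for Pira2. Lilrb4a and Lilr4b were 96% identical over 910 bases. Lilra5 reached no more than 65.7% with any of them, its best match being Lilra6. Pirb and the chromosome 10 genes were 63.4% (Lilrb4a) and 63% (Lilr4b) identical.

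How much of each transcript could be read apart was measured with words of 31 bases, counting those that also occur in a transcript of another gene. Of the Pira2 words, 97.2% were shared, 88.8% with Pira1, 37.9% with the annotated gene Gm14548 and 30.7% with Pirb. For Pirb 45.3% were shared and for Lilra6 59.1%. The gene that held most of these was Gm14548 in both cases, with 28.6% of the Pirb words and 40.2% of the Lilra6 words. All Lilrb4a words occur in Gm49339, an annotated gene that spans Lilr4b and Lilrb4a, and 41.2% occur in Lilr4b; of the Lilr4b words 34.4% were shared. Lilra5 shared 0 of 2079 words with any other gene. Values of Pirb, the Pira rows and Lilra6, and of Lilrb4a, Lilrb4b and Gm49339, are therefore uncertain as single genes, whereas Lilra5 is not touched by this limit.

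**Figure D1:**
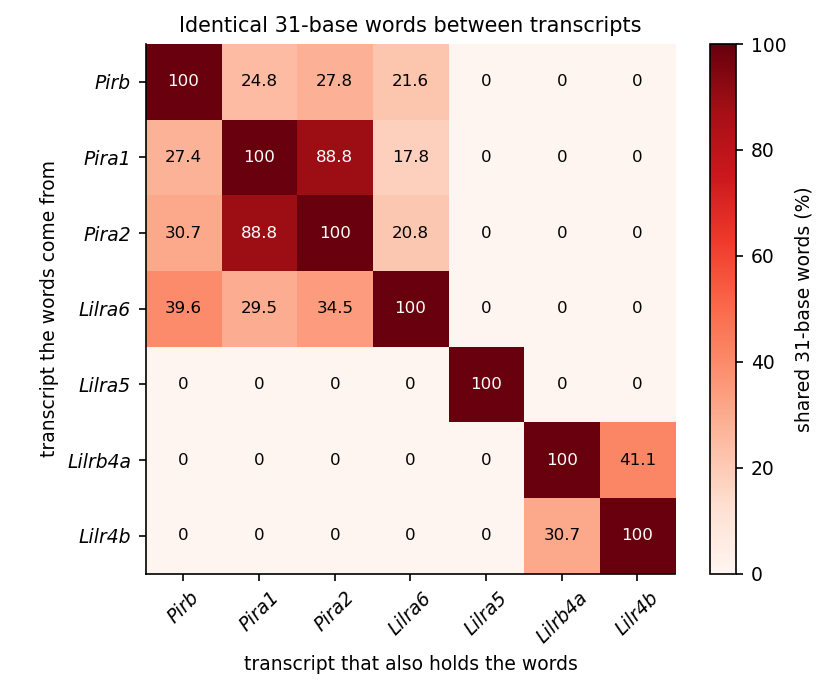
Share of the 31-base words of a transcript (row) that also occur in the representative transcript of another gene (column), in percent; the diagonal is 100 by construction. Pira1 and Pira2 share 88.8%, Lilrb4a and Lilr4b between 30.7% and 41.1%, and Lilra5 none.

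The upstream sequences of the chromosome 7 copies were also close. Shown are RefSeq promoter bases (GRCm38.p6, minus strand), ending before the first annotated transcript base of each gene, with capitals for differences from Pirb.
Pirb: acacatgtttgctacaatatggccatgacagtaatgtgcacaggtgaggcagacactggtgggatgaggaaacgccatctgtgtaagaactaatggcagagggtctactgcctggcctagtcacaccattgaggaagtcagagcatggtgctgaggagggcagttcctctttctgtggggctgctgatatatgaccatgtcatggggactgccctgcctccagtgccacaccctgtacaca
Pira1: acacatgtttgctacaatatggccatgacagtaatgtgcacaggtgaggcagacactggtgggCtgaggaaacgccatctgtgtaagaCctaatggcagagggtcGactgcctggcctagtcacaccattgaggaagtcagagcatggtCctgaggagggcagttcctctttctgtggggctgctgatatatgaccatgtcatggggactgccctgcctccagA
Pira2: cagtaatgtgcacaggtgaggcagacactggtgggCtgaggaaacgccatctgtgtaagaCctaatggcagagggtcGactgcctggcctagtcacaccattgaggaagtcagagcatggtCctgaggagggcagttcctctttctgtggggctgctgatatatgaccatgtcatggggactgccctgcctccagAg
Lilra6: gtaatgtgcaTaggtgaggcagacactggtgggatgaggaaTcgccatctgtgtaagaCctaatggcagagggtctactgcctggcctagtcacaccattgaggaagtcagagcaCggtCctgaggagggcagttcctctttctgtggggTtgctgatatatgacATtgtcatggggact
They lie on chromosome 7 at chr7:3720392-3720632 (Pirb), chr7:3739944-3740167 (Pira1), chr7:3845105-3845301 (Pira2) and chr7:3915572-3915751 (Lilra6). Identity with Pirb was 97.8% for Pira1 (5 differences), 97.5% for Pira2 (5 differences) and 95.6% for Lilra6 (8 differences). All 4 stretches hold GAGGAAGT, a form of the site bound by the ETS factor PU.1, which 3.2% of 32851 RefSeq promoter windows of 300 bases contain on either strand. This motif was chosen after the sequences were seen. The windows of Lilra5 and Lilr4b, also searched, do not hold these letters. GAAANNGAA, a core of the interferon-stimulated response element, was found in none of the 6 windows and in 8.56% of all windows, and TTGCNNAA, a C/EBP form, in that of Lilra5 alone and in 10.8% of all. Promoters of 5 of the 7 genes were in the RefSeq table. Each window that held a motif held 1 of the 3, so none overlapped, and a match is a description of the letters only.

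Mature miRNAs of the floxed clusters belong to the miR-23, miR-24 and miR-27 families and are shown, from RefSeq, with the seed (bases 2 to 8) in capitals.
miR-23a-3p: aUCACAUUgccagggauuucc
miR-27a-3p: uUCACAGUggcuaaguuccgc
miR-27b-3p: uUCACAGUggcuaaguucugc
miR-24-3p: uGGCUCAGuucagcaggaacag
miR-27a-3p and miR-27b-3p share a seed, and miR-24-3p comes from both clusters. For miR-23b-3p the RefSeq entries used held no mature sequence, so it is not shown. The longest annotated 3' UTRs of Pirb (1242 bases), Lilra5 (1217), Lilr4b (836), Lilra6 (406) and Lilrb4a (367) hold no 7-base match to any of these seeds. That of Pira2 (1391 bases) holds a miR-24 and a miR-27 match, and the Pira1 copy has both at the same places. The matches in Pira2, in capitals, are the following.
miR-24 match: cccacactcttCTGAGCCcataaagtgag
miR-27 match: aatgtcatttcACTGTGAatttcattttt
The first lies at chromosome 7, 3837949 to 3837955, and the second at 3836972 to 3836978, both on the minus strand (mm10). Among 3580 genes with a 3' UTR within 25% of the Pira2 length, 18.8% hold the miR-24 match, 17.9% the miR-27 match and 16.4% the miR-23 match. Of the 7 transcripts searched (Pira1 and the members other than Pira12), those of Pira1 and Pira2 were the only ones with a seed match.

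The deposited comparison does not name its numerator, and its sign was read from Lyz2, which the Cre insertion disrupts and whose log2 fold change was -9.10 (SE 0.42) in the authors' deposited table. Negative values are therefore taken as lower in the knockout. Values of single libraries were not used, because their 8 numbered columns match no sample label; each level below is a group mean of normalized counts, derived from the authors' mean and fold change for 4 libraries a group, and each error is the authors' standard error (SE). A gene was called where the authors' DESeq2 adjusted p was under 0.05. Of 14619 genes tested, 11.7% were called lower and 11.3% higher. When fold changes are centred on the summed group means, a log2 shift of -0.06, these calls become 960 lower and 2339 higher, in place of 1712 and 1651.

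All 7 receptor genes had a negative log2 fold change; 6 were called lower and 0 higher. Their median was -0.68, and that of all genes tested -0.004. Because the genes were picked with these values in view, nothing is read from this count or median against the 11.7% called lower among all genes. Fold changes ran from -1.36 for Pira12 to -0.35 for Lilrb4b in the authors' deposited table, and Lilra5 was the gene not called. Fewer macrophages and less receptor RNA per cell cannot be told apart in bulk libraries; the macrophage marker genes Adgre1 (0.25, SE 0.07, called higher), Mertk (-0.02, SE 0.09) and Csf1r (-0.33, SE 0.09, called lower) had these log2 values in the authors' deposited table. Stromal markers were higher in the same knockout libraries (15 of 16 called, values at the end), and their part in the receptor values was not tested.

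Among the activating receptors of chromosome 7 with an annotated transcript, Pira2 had the highest level per kb (2418 normalized counts in control cells). Its derived mean was 8370 in control and 4385 in knockout cells, a level 47.6% lower. In log2 units the difference was -0.93 (SE 0.12; 95% interval -1.17 to -0.70), per the authors' deposited table. Pira12 went from 717 to 279, the steepest difference of the family at -1.36 (SE 0.22, 95% interval -1.78 to -0.94) in the authors' deposited table. Of the tested genes, 54 had a more negative fold change, 21 of them called. Lilra6 went from 157 to 84.5, a log2 difference of -0.89 (SE 0.29) per the authors' deposited table. Its interval of -1.46 to -0.33 takes in the values of all the other receptor genes described, activating and inhibitory.

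Lilra5, whose human counterpart is an activating receptor of monocytes, had the lowest level per kb (30 in control cells), with derived means of 63.3 and 39.6. The authors' deposited table puts its log2 fold change at -0.68, with an SE of 0.36 and a 95% interval of -1.38 to 0.03. The estimate was lower than those of the called genes Pirb, Lilrb4a and Lilrb4b, and the interval was the widest of the 7. It is also the member that shares no 31-base word with another gene.

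Pirb, the inhibitory partner, had a higher level per kb and a smaller fold change. Its derived mean went from 34239 in control to 24993 in knockout cells, 27% lower, and the authors' deposited table gives -0.45 (SE 0.09) in log2 units. The 95% interval of -0.63 to -0.28 does not overlap those of Pira2 and Pira12. It does overlap those of every other family row, among them Lilra6 (-1.46 to -0.33), Lilra5 (-1.38 to 0.03) and Pira1 (-1.01 to -0.48). Whether Pirb and Pira2 differed in response was not tested, since that needs values per library, and reads shared between them bear on both values. Per kb of transcript, the Pirb level was 3.7 times the Pira2 level in control and 5.16 times in knockout cells.

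On chromosome 10 the inhibitory Lilrb4a and its relative Lilrb4b had the highest levels per kb and the smallest fold changes of the 7. Lilrb4a went from 31628 to 23629.6, at -0.42 (SE 0.13) in the authors' deposited table. Lilrb4b went from 54232 to 42592, at -0.35 (SE 0.14, 95% interval -0.62 to -0.08), also from the authors' deposited table. Its adjusted p of 0.0478 (DESeq2) is close to the threshold, and the call was lost without a filter on low counts (adjusted p = 0.0518) and with either centring (adjusted p = 0.0511 on the median gene and 0.119 on the summed group means). Levels per kb of transcript were 22902 for Lilrb4a and 29538 for Lilr4b in control cells, against 8954 for Pirb.

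**Figure D2:**
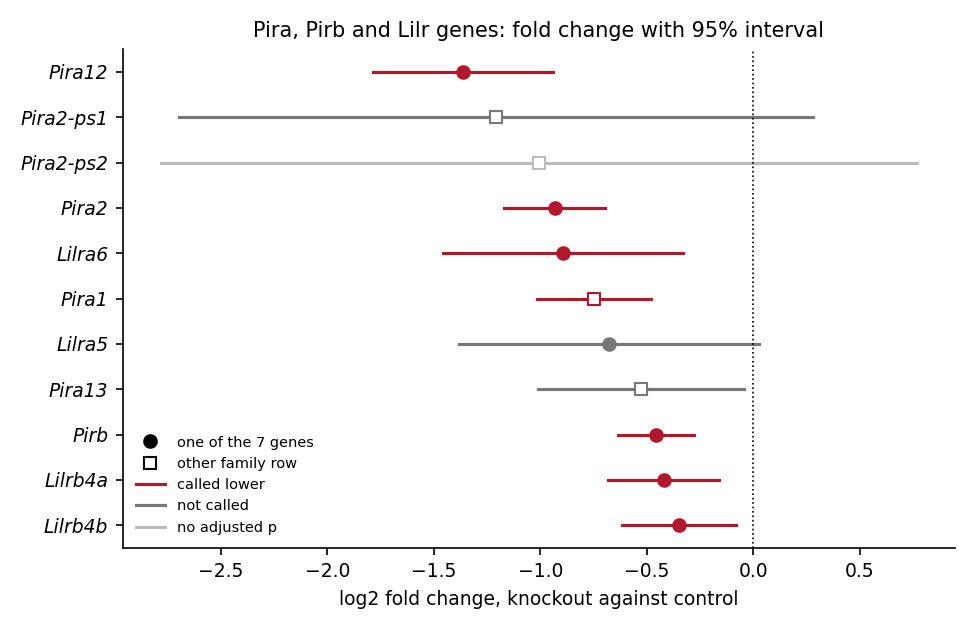
Log2 fold change (knockout against control) of the 11 family rows with 95% intervals from the authors' SE; filled circles are the 7 genes described, open squares the other rows, and colour gives the call. All points lie below 0, and the intervals of Lilra5 and of both pseudogene rows include 0.

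The family rows outside the 7 lay on the same side. Pira1, almost identical to Pira2, went from 1341 to 799.5 and was called lower at -0.75 (SE 0.14, adjusted p = 1.57e-06 by DESeq2) in the authors' deposited table. Pira13 was at -0.53 (SE 0.25, adjusted p = 0.104), and the pseudogene row Pira2-ps1, with a mean of 10.2, at -1.21 (SE 0.76, adjusted p = 0.251), in the same authors' deposited table. Pira2-ps2 has no adjusted p. Since reads can move between these copies, none of these rows is independent of the members.

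Sums over near-identical genes depend less on how reads were split among them, but they carry no error here, and reads can still move to rows left out of a sum. The 4 Pira rows with names lacking -ps, together with Lilra6, summed to 10768 normalized counts in control and 5675 in knockout cells, 47.3% lower. With Pirb added the sums were 45007 and 30668, 31.9% lower. The Pira rows and Lilra6 made up 23.9% of that total in control and 18.5% in knockout cells, shares that rest on how reads were divided between Pirb and the other rows. Lilrb4a and Lilrb4b together went from 85859.5 to 66221, 22.9% lower. Gm49339, which spans both genes, has a row of its own that was not called, at -0.20 (SE 0.12, adjusted p = 0.224 by DESeq2) per the authors' deposited table, with derived means of 38024 and 33001. With it included, a sum added after seeing the data, the level went from 123884 to 99223, 19.9% lower.

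**Figure D3:**
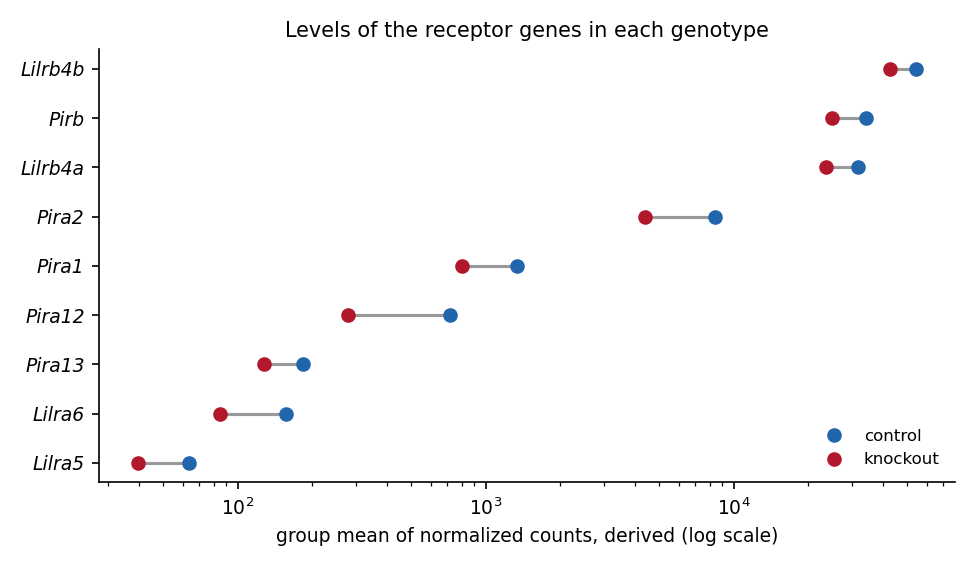
Derived group means of normalized counts (log axis) in control (blue) and knockout (red) cells for the 9 family rows that are not pseudogenes; no error bars are drawn because values per library were not used. Levels span from 39.6 (Lilra5, knockout) to 54232 (Lilrb4b, control), and the red point lies left of the blue one in every row.

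Partner chains and kinases of the activating receptors were next compared, as a list of 24 genes. Of these, 5 were called lower (20.8%, beside 11.7% of all genes) and 2 higher (8.33%, beside 11.3%), with a median log2 fold change of -0.11, beside -0.004 over all genes. Fcer1g, the signalling chain of PIR-A and of the Fc receptors, fell by 0.44 on the log2 scale (SE 0.10, adjusted p = 0.000153 by DESeq2), from 33974 to 25108, in the authors' deposited table. The adaptor gene Blnk was at -0.27 (SE 0.06) and the kinase gene Btk at -0.16 (SE 0.04), both called lower, while Src, a kinase, was called higher at 0.58 (SE 0.10), all in the authors' deposited table. In the authors' deposited table, values for Syk, the kinase that binds phosphorylated ITAMs, were -0.01 (SE 0.06), and for the other ITAM chain gene Tyrobp -0.11 (SE 0.05, adjusted p = 0.0899 by DESeq2). With centring on the summed group means 2 were called lower and 2 higher, where 6.57% of all genes were called lower and 16.0% higher.

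Effectors of the inhibitory receptors gave 6 calls lower and 0 higher of 14 (42.9% and 0%, beside 11.7% and 11.3% of all genes), with a median of -0.18. Those with the smallest adjusted p were Csk (-0.19, SE 0.05), the kinase that restrains Src kinases, Dok1 (-0.26, SE 0.07) and Inppl1 (-0.21, SE 0.06), a lipid phosphatase, followed by the phosphatase gene Ptpn22 (-0.24, SE 0.09), in the authors' deposited table. Ptpn6, Ptpn11 and Inpp5d, phosphatase genes whose products ITIMs are known to recruit, were not called. Ptpn6 was at -0.17 (SE 0.08, adjusted p = 0.114), Ptpn11 at 0.04 (SE 0.05, adjusted p = 0.642) and Inpp5d at -0.16 (SE 0.07, adjusted p = 0.0613) by DESeq2 in the authors' deposited table. Centring on the summed group means left 2 calls lower and gave 1 higher, where 6.57% of all genes were called lower and 16.0% higher. The balance of calls thus changes with the scaling, in this list as over all genes. Syk, Tyrobp, Ptpn6, Ptpn11 and Inpp5d were named for their roles, outside the naming rule.

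Reported ligands of these receptors had 4 calls lower and 2 higher of 15 tested (26.7% and 13.3%, beside 11.7% and 11.3% of all genes), with a median of -0.49. MHC class I heavy chain genes H2-D1 (-0.64, SE 0.17) and H2-T23 (-0.81, SE 0.26) were called lower, as was B2m (-0.69, SE 0.23), the shared light chain, in the authors' deposited table. H2-K1 was at -0.51 (SE 0.23, adjusted p = 0.0893 by DESeq2) in the authors' deposited table. Angptl2, a secreted ligand of PIR-B, was the fourth gene called lower (-0.49, SE 0.16), and Rtn4, which encodes the PIR-B ligand Nogo, was at 0.03 (SE 0.09), both in the authors' deposited table. The genes called higher were Fn1 (2.17, SE 0.43), fibronectin, and Mag (0.94, SE 0.20), a myelin glycoprotein, in the authors' deposited table. B2m, H2-K1, Angptl2 and Rtn4 fall outside the naming rule.

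Other paired receptor families did not move one way. Of 35 tested genes, 8 were called lower and 7 higher, or 22.9% and 20.0% beside 11.7% and 11.3% of all genes (4 lower and 7 higher with centring on the summed group means), and the median was -0.13. Cd200r4, an activating CD200 receptor, was the clearest of those called lower, at -0.70 (SE 0.06, adjusted p = 3.41e-25 by DESeq2) in the authors' deposited table, with Cd300lb at -0.29 (SE 0.08). Cd300lg (2.02, SE 0.40) and Pecam1 (0.82, SE 0.23), genes also expressed by endothelial cells, were called higher in the authors' deposited table. The activating Sirpb1a, Sirpb1b and Sirpb1c were at -0.67 (SE 0.26), -0.58 (SE 0.22) and -0.76 (SE 0.25), all called lower, and the inhibitory Sirpa at 0.17 (SE 0.05), called higher, in the authors' deposited table. The Sirpb1 genes are near-identical copies, so reads may be shared among them, and these 4 were named after their values were seen. With that centring Sirpb1c kept its call, whereas Sirpb1a (adjusted p = 0.0714) and Sirpb1b (0.0687) did not.

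**Figure D4:**
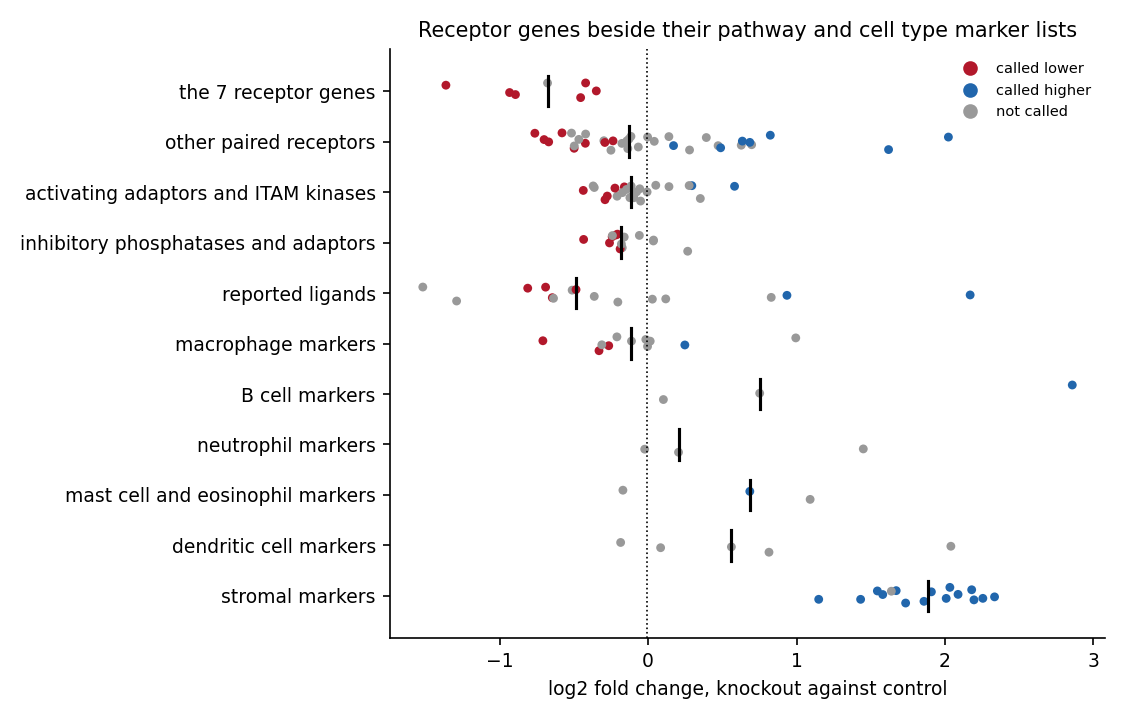
Log2 fold change (knockout against control) of each tested gene in the 7 receptor genes, 4 pathway lists and 6 cell type marker lists; black bars are list medians, the dotted line the median of all genes tested, and Lyz2 (-9.10) is left out of the macrophage row. The receptor genes all lie below 0, whereas stromal markers all lie above it.

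Genes within 1000 kb of a member's start gave 9 calls lower and 4 higher of 61, beside 11.7% and 11.3% of all genes. With centring on the summed group means they gave 6 lower and 5 higher, where 6.57% of all genes were called lower and 16.0% higher. With a mean of at least 50 the neighbours gave 8 lower and 1 higher. On chromosome 7 there were 9 lower and 3 higher of 52, with a median of -0.07, and around Lilrb4a 0 lower and 1 higher of 9, of which 1 is Gm49339, not a separate gene. The neighbours with the smallest adjusted p were Ppp6r1 (-0.29, SE 0.04), Epn1 (-0.27, SE 0.06), Tsen34 (-0.26, SE 0.06) and Ndufa3 (0.32, SE 0.08) in the authors' deposited table. Tsen34, a tRNA splicing gene, starts 27.5 kb from Pirb. For Rps9, a ribosomal protein gene that starts 16.4 kb from Pirb, the authors' deposited table gives -0.01 (SE 0.05). Lair1, another inhibitory immunoglobulin-like receptor, lies between Lilra6 and Lilra5 and was called lower at -0.42 (SE 0.15, adjusted p = 0.0304 by DESeq2) in the authors' deposited table; its call was lost with centring on the summed group means (adjusted p = 0.0743). Lair1 and Rps9 fall outside the naming rule.

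**Figure D5:**
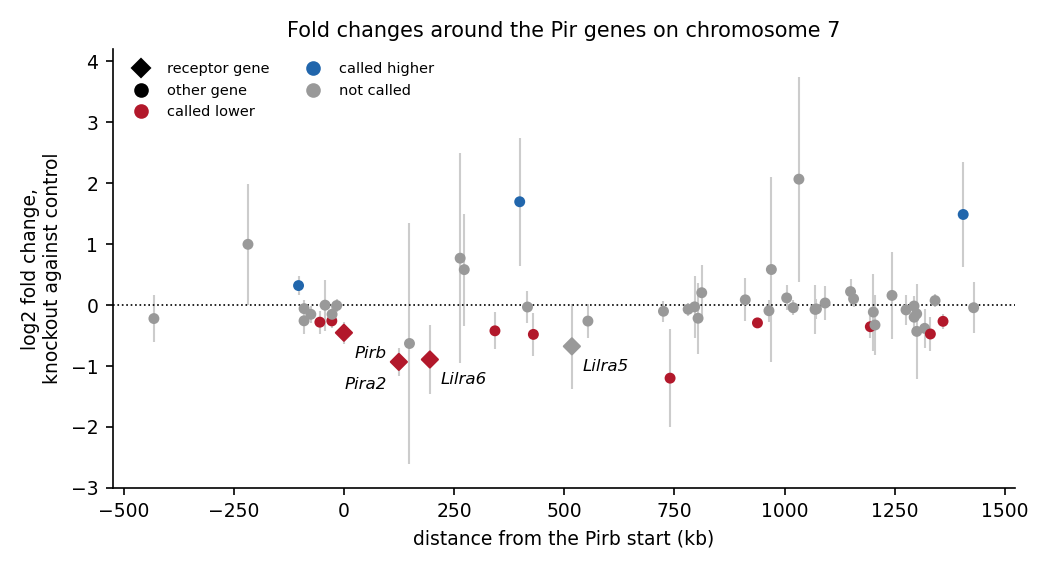
Log2 fold change (knockout against control) against distance of each gene's start from that of Pirb on chromosome 7, in kb; diamonds are receptor genes, circles the 52 other tested genes, bars 95% intervals from the authors' SE. Pira2, Lilra6 and Lilra5 (not called) lie below most of their neighbours, which have a median of -0.07. The receptor genes were chosen with these fold changes in view, so nothing is read from this contrast.

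Because these receptors are carried by several blood cell types, markers of those cells were read in the same libraries. Macrophage markers were abundant (Adgre1, F4/80, mean 144462, and Csf1r, mean 163291). They gave 4 calls lower and 1 higher of 12 (33.3% and 8.33%, beside 11.7% and 11.3% of all genes), with Lyz2 among the lower. Without Lyz2 their summed level went from 663078 to 644649 normalized counts, 2.78% lower. Mrc1 rests on a wide error (0.99, SE 0.63, not called) in the authors' deposited table, and without it as well, chosen after seeing the data, the sum went from 617521 to 553864, 10.3% lower. Besides Csf1r, those called lower were Cd68 (-0.26, SE 0.07) and Fcgr1 (-0.71, SE 0.24), the latter outside the naming rule, in the authors' deposited table. B cell markers (3 of 8 used here) summed to 95.4 in control and 176.5 in knockout cells. Neutrophil markers (5 of 11 with a row) summed to 138 and 149, mast cell and eosinophil markers (5 of 12) to 271 and 426.5, and dendritic cell markers (6 of 9) to 4062 and 4324.5, nearly all of it Itgax. The summed level of none of these 4 lists was lower in the knockout. Most of the control sum came from Cd79b (79.2) in the B cell list and from Siglecf (225) in the mast cell and eosinophil list. These sums therefore say little on the other genes of the lists. Ebf1, a B cell and stromal transcription factor (2.86, SE 0.66), and Siglecf, an eosinophil and macrophage lectin (0.69, SE 0.20), were called higher in the authors' deposited table. None of the neutrophil genes S100a8 (-0.02, SE 0.27), Cxcr2 (0.21, SE 0.39) and Prtn3 (1.45, SE 0.80), or of the dendritic cell genes Zbtb46 (0.81, SE 0.48), Xcr1 (0.56, SE 0.55), Clec9a (-0.18, SE 0.54) and Dpp4 (2.04, SE 0.87), was called in the authors' deposited table. Stromal markers had 15 of 16 called higher (93.75%, beside 11.3% of all genes), with a median of 1.88. Their sum went from 2356 to 8559 beside 71400901 normalized counts over all genes in control cells. Those with the smallest adjusted p were the matrix genes Postn (1.86, SE 0.22), Col1a2 (2.18, SE 0.27) and Fbn1 (2.03, SE 0.26) and the smooth muscle actin gene Acta2 (1.43, SE 0.18), per the authors' deposited table.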

How the data were processed

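Poly(A) RNA-seq of 8 libraries (4 a genotype) was analysed from the deposited comparison. The tools named in the submitters' processing notes are Salmon, DESeq2, cutadapt and FastQC, with the build mm10, and their versions are not stated there. Per the file headers, the table gives the authors' mean normalized count (a signal over all libraries), log2 fold change with its SE, the Wald score, and p-values with Benjamini-Hochberg adjustment. The 8 columns of values per library match no sample label and were not used, so depth per library is unknown here, replicates could not be compared and no leave-one-out fit was possible. Group means, 95% intervals (normal), list counts, neighbour windows and alternatives were computed in Python 3.11.15 with scipy 1.17.1. Only the Wald calls, the Benjamini-Hochberg adjustment and the shift of the median gene were tested on simulated data. Alignments used Biopython 1.88, global with free end gaps, on the transcript with the longest coding sequence in GENCODE M21. Genes were named by rule: all family rows, and in each list and among neighbours the 4 called genes with the smallest adjusted p (or the 4 smallest where none was called). The genes and lists were chosen with earlier results of these data known.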

Additional observations from a re-analysis of the deposited data

How the results depend on the processing

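Filters and thresholds leave fold changes as they are, and both centrings move all genes alike by at most 0.06 (log2). For the receptor genes the alternatives therefore bear on calls, not on direction. Genes with a very small fold change can change sign, as S100a8 did with centring on the summed group means (-0.02 to 0.04). The number of receptor genes called lower was 6, and 5 without a filter, with either centring or without the row Lilrb4b (added after seeing the data). At an adjusted p under 0.01 it was 3, Pira12, Pira2 and Pirb, while Lilra6 (adjusted p = 0.0124), Lilrb4a (0.0104) and Lilrb4b (0.0478) missed it; the cause is the stricter threshold itself. At that threshold the 34 pathway genes called became 18. Other paired receptors had 3 lower and 4 higher, and activating adaptors 3 lower and 2 higher. Inhibitory effectors had 3 lower and 0 higher, and ligands 1 lower and 2 higher. Neighbours had 8 calls in place of 13. Over all genes tested, 1009 were then called lower and 1047 higher, in place of 1712 and 1651. A 500 kb window gave 8 calls among 33 tested neighbours, beside 13 among 61 in the 1000 kb window. Centring on the summed group means gave 4 paired receptors, 2 activating adaptors and 2 inhibitory effectors called lower, and 1 inhibitory effector called higher. The paired receptors and activating adaptors called higher stayed at 7 and 2, and the ligands at 4 lower and 2 higher. Over all genes this centring gave 960 lower and 2339 higher. With it Btk (adjusted p = 0.0635), Inppl1 (0.0692) and Ptpn22 (0.136) lost their calls by the Wald test. Over 47 genes chosen by the naming rule, 11 of 227 gene and setting pairs lost a call; the rest include genes called under no setting. Words of 25 or 51 bases gave shared shares of 48.4% and 37% for Pirb, 98.2% and 93.8% for Pira2, and 66.4% and 38.9% for Lilra6. No paired analysis was possible because no column with single-library values could be tied by its name to a genotype or replicate. For the same reason refits with limma, with another pseudocount or without single libraries were not run.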
